A study of Mus musculus with 33 samples.

Results

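The 31 genes described here encode the enzymes of glycolysis, the kinases that set its rate at fructose-2,6-bisphosphate and at pyruvate dehydrogenase, and the carriers that bring glucose into the cell and lactate out of it. They were chosen by symbol, with earlier results of these data known, and all 31 were found among the 55376 gene symbols counted in each library. Total RNA from sorted bone marrow cells of old male C57BL/6 mice (24 to 29 months) was sequenced in 33 libraries, each of 1 cell type: hematopoietic stem cells (HSCs), common lymphoid progenitors (CLPs) or granulocyte-macrophage progenitors (GMPs). Old untreated mice (O-WT) were compared with old mice given nicotinamide riboside (NR), a precursor of NAD+, in the drinking water for 4 to 6 weeks (O-NR), and in a separate set of HSC libraries with mice that had been off NR for 2 months (O-NR-RC). Cohort 2 holds 4 O-WT and 4 O-NR libraries of each cell type, and cohort 1 has only HSCs, with 2 libraries untreated, 4 on NR and 3 after withdrawal. All groups carry the wild-type C57BL/6 genotype and no young mice are among these libraries, so that every level below belongs to old marrow. HSCs were gated as Lin-, c-Kit+, Sca1+, CD34-, Flk2- and CD150+ cells, CLPs as Lin-, IL-7Ra+ and Flk2+ cells, and GMPs as Lin-, Sca1-, c-Kit+, CD34+ and Fcgr+ cells. For the GMP libraries 1 label field gives another progenitor name, and the name in their titles is used here. The names of the 24 files of cohort 2 carry 8 numbers, each found once in every cell type with the same treatment and label number, so HSC, CLP and GMP libraries may come from the same mice. The labels do not say which mouse a library is from. Cell types were compared as separate libraries, with the number as a block as an alternative, and p-values measure the spread between these libraries.

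Glycolysis splits glucose into pyruvate in the cytosol, and most of its steps can be carried out by any of several isoforms that differ in their affinity, regulation and tissue. Pyruvate is then reduced to lactate by lactate dehydrogenase and exported, or enters mitochondria through the mitochondrial pyruvate carrier, where the pyruvate dehydrogenase complex turns it into acetyl-CoA unless the pyruvate dehydrogenase kinases switch the complex off. Long-lived HSCs are known for a quiescent, glycolytic state, whereas dividing progenitors draw on both glycolysis and respiration.

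Levels are given as CPM (counts scaled to a common library size), after scaling libraries within their cohort with the trimmed mean of M-values (TMM). Where isoforms are compared with each other, CPM per kb of exon are used, and an isoform share is the percent that 1 isoform contributes to the summed CPM per kb of its family in a library. Libraries held 4792380 to 18213674 counts in cohort 2 and 8897256 to 23816042 in cohort 1. The 7 markers of HSCs summed to 970.2 to 1789 CPM in the O-WT HSC libraries against 64.3 to 80.5 in CLPs and 36.0 to 56.1 in GMPs, the 7 CLP markers to 1664 to 3668 CPM in CLPs against 29.1 to 48.0 in the other cell types, and the 7 GMP markers to 18397 to 23272 CPM in GMPs against 73.8 to 426.5 elsewhere. In bulk RNA, fewer cells of a kind and less RNA per cell cannot be told apart. A background of reads was present in all libraries. Genes of odour receptors, which blood cells do not use, averaged 0.181 to 0.826 CPM per kb in cohort 2, highest in the library labelled CLP O-WT replicate 3, and 1.10 to 1.95 in cohort 1. Members below about this level cannot be told from background.

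Among the O-WT HSCs, libraries with more of this background had less glycolytic RNA. In the O-WT HSC libraries of cohort 2, the 31 genes summed to 712.7, 364.6, 453.4 and 592.5 CPM per kb, beside receptor levels of 0.297, 0.560, 0.463 and 0.370 CPM per kb. CLP O-WT replicate 3 summed to 206.4 CPM per kb, against 321.4 to 385.9 in the other CLP O-WT libraries. Within O-WT the highest sums were those of the GMP libraries, at 981.4 to 1272 CPM per kb, and they did not overlap those of HSCs or CLPs. Fits with the receptor level as a term are given where they move a result, and its part in the other results was not tested.

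In O-WT mice, isoform use and level differed among the 3 cell types for most of the 31 genes. HSCs had 18 members higher and 1 lower than CLPs by edgeR's quasi-likelihood test at a Benjamini-Hochberg adjusted p below 0.05, or 19 in all, where 26.0% of the 22573 genes tested were called (16.7% higher and 9.38% lower). Against GMPs, 9 members were higher and 16 lower in HSCs, 25 in all, beside 38.5% of all genes (20.0% higher and 18.6% lower). Between CLPs and GMPs 24 members were called, 4 higher and 20 lower in CLPs, beside 56.2% of all genes (32.1% and 24.1%). The median log2 fold change of the members was 0.81 for HSCs against CLPs, -0.51 for HSCs against GMPs and -1.35 for CLPs against GMPs, where the medians over all genes were -0.11, 0.32 and 0.42. With upper quartile scaling these all-gene medians were -0.35, 0.57 and 0.89, the share of called genes that were higher went from 64.0%, 51.8% and 57.2% to 45.5%, 61.1% and 77.4%, and the members split 17 to 3, 9 to 15 and 6 to 20, with no called member changing sign.

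**Figure D1:**
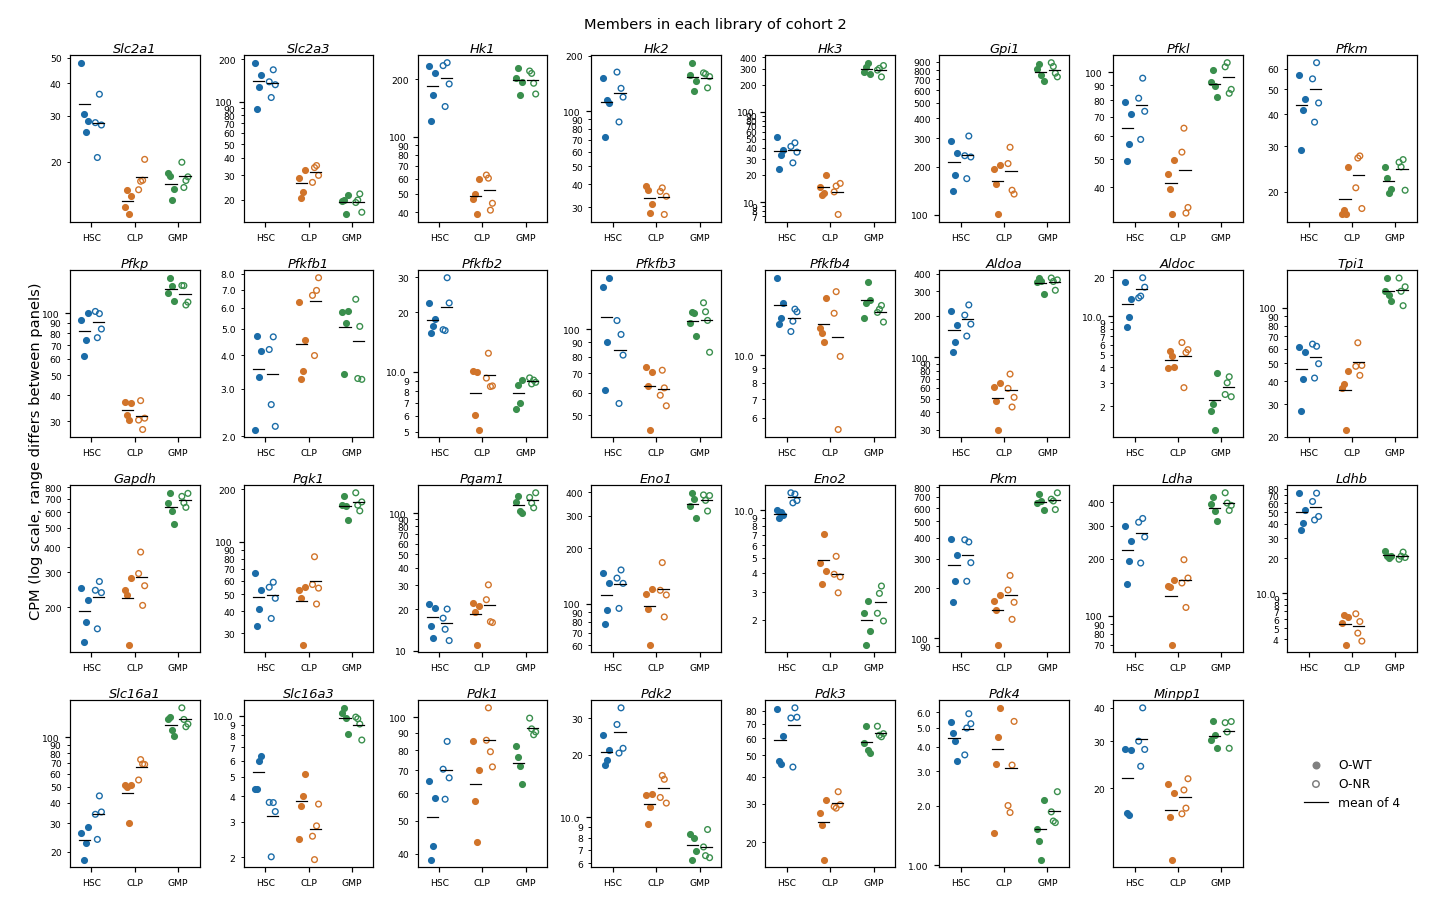
CPM of each of the 31 genes (log axis, range differs between panels) in the 24 libraries of cohort 2, by cell type, with O-WT as filled and O-NR as open points and a bar at each group mean. Slc2a3 and Ldhb stand highest in HSCs, Hk3, Pgam1 and Gpi1 in GMPs, and most genes are lowest in CLPs.

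Both glucose carriers were higher in HSCs than in either progenitor. Slc2a1 encodes GLUT1, a carrier found in most cells, and Slc2a3 encodes GLUT3, a high-affinity carrier best known from neurons and white blood cells. Slc2a3 in O-WT measured 189.5, 88.5, 126 and 154 CPM in HSCs, 28.8, 20.6, 22.9 and 32.6 CPM in CLPs and 19.8, 19.8, 15.8 and 21.6 CPM in GMPs. HSCs lay above both progenitors in every library, with a log2 fold change of 2.41 (SE 0.22, adjusted p = 5.39e-14) against CLPs and 2.86 (SE 0.22, adjusted p = 1.17e-16) against GMPs, while CLPs and GMPs differed by 0.45 (SE 0.21, adjusted p = 0.0624). Slc2a1 measured 47.9, 30.4, 26.0 and 28.7 CPM in HSCs, 13.4, 15.6, 12.6 and 14.8 CPM in CLPs and 18.2, 17.7, 14.4 and 15.7 CPM in GMPs, again without overlap between HSCs and either progenitor. Its log2 fold change was smaller, 1.23 (SE 0.20, adjusted p = 1.84e-06) against CLPs and 1.01 (SE 0.20, adjusted p = 3.52e-05) against GMPs. Per kb of exon, Slc2a3 (19.3 CPM per kb) was thus the more abundant carrier in HSCs and Slc2a1 (9.48) the less abundant, whereas in GMPs Slc2a1 (4.70) exceeded Slc2a3 (2.65). In CPM without length, Slc2a3 was above Slc2a1 in GMPs too (means of 19.2 and 16.5). The share of Slc2a1 was 34.3%, 41.5%, 29.9% and 27.8% in the HSC libraries, 49.1%, 61.1%, 53.2% and 48.4% in CLPs and 65.5%, 64.8%, 65.3% and 60.1% in GMPs. HSCs did not overlap CLPs or GMPs (two-sided exact permutation test, p = 0.0286, the smallest that 4 against 4 libraries can give), and CLPs and GMPs overlapped (exact p = 0.0571).

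The 3 hexokinases, which trap glucose in the cell as glucose-6-phosphate, divided the cell types differently. Hk1, the housekeeping enzyme bound to mitochondria, measured 235, 121, 164 and 216 CPM in HSCs, 46.7, 49.6, 38.9 and 59.8 CPM in CLPs and 202, 229.7, 166 and 194 CPM in GMPs. CLPs were low, at a log2 fold change of 1.92 (SE 0.23, adjusted p = 3.69e-10) for HSCs against CLPs, and HSCs and GMPs differed by -0.11 (SE 0.22, adjusted p = 0.709). Hk2, the insulin- and hypoxia-responsive isoform, measured 152, 72.3, 115 and 110.4 CPM in HSCs, 39.0, 37.3, 27.8 and 31.2 CPM in CLPs and 156, 183, 129 and 146 CPM in GMPs and followed the same order. Its log2 fold change was 1.73 (SE 0.22, adjusted p = 2.27e-09) for HSCs against CLPs and -0.45 (SE 0.21, adjusted p = 0.0826) for HSCs against GMPs. Hk3, an isoform of myeloid cells, measured 53.2, 23.4, 33.2 and 37.7 CPM in HSCs, 14.7, 12.1, 12.7 and 19.8 CPM in CLPs and 276, 311, 349 and 263 CPM in GMPs. GMPs were about an order of magnitude above both other cell types, with log2 fold changes of -3.02 (SE 0.24, adjusted p = 5.52e-16) for HSCs and -4.33 (SE 0.26, adjusted p = 2.24e-20) for CLPs against GMPs, and HSCs were above CLPs by 1.31 (SE 0.24, adjusted p = 1.07e-05). Of the summed hexokinase level, Hk3 made up 19.7% ± 1.18 (SD, n = 4) in HSCs and 26.1% ± 3.85 in CLPs, against 62.4% ± 4.92 in GMPs. The shares of Hk1 were 42.9% ± 2.91, 37.0% ± 2.39 and 17.9% ± 2.34. In O-WT, all pairs of cell types differed in both shares at the smallest exact permutation p of 0.0286. The share of Hk2 did not separate HSCs (37.4%) from CLPs (37.0%), at an exact p of 0.8286. In O-NR, HSCs and CLPs overlapped in the shares of Hk1 (exact p = 0.171) and Hk3 (exact p = 0.143). Hk3 lies at chr13:55005985-55021385 on the minus strand (mm10) and overlaps Unc5a on the other strand, whose 5733 reads over all libraries compare with 38884 for Hk3.

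Glucose-6-phosphate isomerase, the next step, has 1 gene, and its steps between cell types differed in size from those of the hexokinases. Gpi1 measured 290.2, 142, 177 and 242 CPM in HSCs, 194, 156, 101 and 204 CPM in CLPs and 809.5, 875, 749.6 and 689 CPM in GMPs. GMPs exceeded HSCs, with a log2 fold change of -1.88 (SE 0.25, adjusted p = 9.67e-09) for HSCs against GMPs, and exceeded CLPs by a like margin (-2.25 (SE 0.26, adjusted p = 2.52e-10) for CLPs against GMPs), whereas HSCs and CLPs overlapped (0.38 (SE 0.25, adjusted p = 0.267)).

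Phosphofructokinase, the committed step of glycolysis, is a tetramer of liver (Pfkl), muscle (Pfkm) and platelet (Pfkp) subunits. Pfkm measured 56.8, 29.1, 41.6 and 45.9 CPM in HSCs, 16.5, 17.0, 16.3 and 25.0 CPM in CLPs and 24.9, 22.6, 19.9 and 20.6 CPM in GMPs. HSCs were above every CLP and GMP library, at a log2 fold change of 1.21 (SE 0.21, adjusted p = 4.95e-06) and 0.98 (SE 0.21, adjusted p = 9.29e-05). Pfkp measured 92.8, 61.9, 73.9 and 100.3 CPM in HSCs, 37.1, 32.0, 30.3 and 36.8 CPM in CLPs and 125, 148, 135 and 114 CPM in GMPs, highest in GMPs and lowest in CLPs. Its log2 fold change was 1.27 (SE 0.20, adjusted p = 4.48e-07) for HSCs against CLPs and -0.67 (SE 0.19, adjusted p = 0.00401) for HSCs against GMPs. Pfkl measured 78.8, 49.2, 56.2 and 71.5 CPM in HSCs, 44.5, 39.5, 32.2 and 49.7 CPM in CLPs and 92.5, 102, 89.5 and 81.8 CPM in GMPs, in the same order as Pfkp but with smaller steps (0.62 (SE 0.21, adjusted p = 0.0216) for HSCs against CLPs and -0.51 (SE 0.21, adjusted p = 0.0449) for HSCs against GMPs). Per kb of exon, the muscle subunit led in HSCs, with 45.0% ± 2.81 of the family level against 33.5% ± 1.54 for Pfkl and 21.5% ± 1.75 for Pfkp. In GMPs the liver subunit led per kb with 45.6% ± 0.321, and the share of Pfkm was 21.97% ± 1.98. CLPs lay between for these 2 subunits, with Pfkl at 43.3% and Pfkm at 38.9%. Their Pfkp share of 17.9% ± 1.67 was below that of HSCs and that of GMPs (32.4% ± 1.74), each at the smallest exact permutation p of 0.0286. The Pfkm share separated HSCs from GMPs and CLPs from GMPs at the smallest exact p of 0.0286 but overlapped between HSCs and CLPs (exact p = 0.0571). Pfkm (chr15:98092589-98132451, plus strand) overlaps Senp1 and Pfkp (chr13:6579768-6648777, minus strand) overlaps Pitrm1, both on the opposite strand, with 43876 reads for Senp1 against 15546 for Pfkm and 35951 for Pitrm1 against 36133 for Pfkp over the 33 libraries. Whether counting used the strand is not given in the sources used here, and the part of these neighbours in the counts was not tested.

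The Pfkfb genes encode 4 bifunctional enzymes that make and break down fructose-2,6-bisphosphate, the strongest activator of phosphofructokinase. Pfkfb3, the isoform with the highest kinase activity, was the main one in all 3 cell types, at 67.7% ± 7.57 of the family level in HSCs and 63.0% ± 4.52 in CLPs, against 71.8% ± 2.87 in GMPs. Its CPM were 140.3, 61.1, 90.1 and 152 CPM in HSCs, 73.5, 63.1, 44.5 and 71.1 CPM in CLPs and 105, 116, 114 and 94.95 CPM in GMPs. CLPs were below HSCs, at 0.81 (SE 0.23, adjusted p = 0.00423), and below GMPs, at -0.77 (SE 0.23, adjusted p = 0.0045), and HSCs and GMPs differed by 0.05 (SE 0.22, adjusted p = 0.877). Pfkfb2 measured 22.2, 15.6, 17.0 and 18.4 CPM in HSCs, 10.1, 6.07, 9.97 and 5.13 CPM in CLPs and 6.52, 8.63, 6.98 and 9.07 CPM in GMPs. HSCs were higher than both progenitors, by 1.24 (SE 0.23, adjusted p = 2.6e-05) and 1.23 (SE 0.23, adjusted p = 1.4e-05). Its share was 12.4% ± 2.46 in HSCs and 5.47% ± 1.03 in GMPs (exact permutation p = 0.0286). Pfkfb4 and Pfkfb1 were not called between any pair of O-WT cell types. Pfkfb4 ranged from 11.1 to 18.8 CPM over the 12 O-WT libraries. Pfkfb1 measured 2.12, 4.70, 3.31 and 4.14 CPM in HSCs, 6.28, 3.26, 3.49 and 4.54 CPM in CLPs and 5.76, 3.41, 5.25 and 5.84 CPM in GMPs, which is 0.887 to 1.26 CPM per kb on average. It lies on chrX:150588229-150643878 (plus strand) and overlaps Apex2 on the other strand, which held 6802 reads to the 2257 of Pfkfb1 over the 33 libraries.

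Aldolase cleaves fructose-1,6-bisphosphate, with Aldoa as the widespread isoform and Aldoc as the isoform best known from brain. Aldoa measured 217, 109, 129 and 170.5 CPM in HSCs, 60.7, 48.1, 30.0 and 65.3 CPM in CLPs and 349.8, 375, 357 and 288 CPM in GMPs. The 3 cell types did not overlap, with GMPs highest, and the log2 fold change was 1.61 (SE 0.24, adjusted p = 1.29e-07) for HSCs against CLPs and -1.13 (SE 0.23, adjusted p = 5.66e-05) for HSCs against GMPs. Aldoc measured 18.6, 8.199, 9.83 and 13.5 CPM in HSCs, 3.92, 5.39, 4.86 and 4.04 CPM in CLPs and 1.84, 2.09, 1.31 and 3.59 CPM in GMPs. It went the other way between HSCs and GMPs, at 2.51 (SE 0.30, adjusted p = 3.83e-10), and was also higher in HSCs than in CLPs, at 1.46 (SE 0.29, adjusted p = 4.35e-05). Aldoc contributed 8.26% of the aldolase level in HSCs and 10.1% in CLPs, against 0.760% in GMPs, and GMPs differed from each of the others at the smallest exact p of 0.0286. In GMPs Aldoc stood at 0.677 CPM per kb, near the receptor level there, so that its level in GMPs is at most this. The symbol Aldoa stands for 2 entries in the annotation, and the exon length used is that of the entry at chr7:126795234-126800751.

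The steps of the lower trunk that have a single main gene shared 1 order of cell types. Triosephosphate isomerase (Tpi1), glyceraldehyde-3-phosphate dehydrogenase (Gapdh), phosphoglycerate kinase (Pgk1), phosphoglycerate mutase (Pgam1) and the widespread enolase Eno1 were all higher in GMPs than in HSCs and CLPs, and none of the 5 passed the test between HSCs and CLPs. Pgam1 had the largest step, with 21.9, 15.2, 12.4 and 20.6 CPM in HSCs, 22.2, 19.2, 11.1 and 21.2 CPM in CLPs and 121, 133, 104 and 100.5 CPM in GMPs. Its log2 fold change was -2.71 (SE 0.23, adjusted p = 4.11e-15) for HSCs and -2.63 (SE 0.23, adjusted p = 3.75e-14) for CLPs against GMPs, and -0.07 (SE 0.22, adjusted p = 0.826) between HSCs and CLPs. Gapdh measured 248, 133, 168 and 217 CPM in HSCs, 243, 231, 129 and 279.9 CPM in CLPs and 667, 752, 609 and 524 CPM in GMPs. HSCs and CLPs overlapped (-0.20 (SE 0.24, adjusted p = 0.553)), and both lay below every GMP library (-1.73 (SE 0.24, adjusted p = 3.15e-08) for HSCs). Pgk1 measured 66.3, 33.0, 41.1 and 52.8 CPM in HSCs, 53.2, 48.0, 25.8 and 55.4 CPM in CLPs and 163, 183, 160.1 and 133 CPM in GMPs, with -1.73 (SE 0.23, adjusted p = 6.07e-09) for HSCs against GMPs and -1.81 (SE 0.23, adjusted p = 5.26e-09) for CLPs against GMPs.

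Tpi1 and the enolases completed the pattern. Tpi1 measured 61.2, 27.7, 41.1 and 57.5 CPM in HSCs, 36.9, 38.9, 21.9 and 45.2 CPM in CLPs and 123, 145, 116 and 109 CPM in GMPs. It differed by -1.40 (SE 0.22, adjusted p = 4.46e-07) between HSCs and GMPs and by 0.39 (SE 0.22, adjusted p = 0.196) between HSCs and CLPs. Eno1 measured 146, 78.3, 93.2 and 130.1 CPM in HSCs, 113, 93.9, 60.3 and 121 CPM in CLPs and 337, 398, 367 and 291 CPM in GMPs, with -1.64 (SE 0.23, adjusted p = 4.45e-08) for HSCs against GMPs and 0.21 (SE 0.23, adjusted p = 0.532) for HSCs against CLPs. Eno2, the isoform known as neuron-specific enolase, ran against it, with 10.03, 8.88, 9.74 and 9.33 CPM in HSCs, 4.59, 3.37, 7.11 and 4.12 CPM in CLPs and 2.23, 1.39, 2.63 and 1.71 CPM in GMPs. HSCs were above GMPs by 2.25 (SE 0.29, adjusted p = 3.85e-09) and above CLPs by 0.99 (SE 0.28, adjusted p = 0.00458), without overlap, and CLPs were above GMPs by 1.26 (SE 0.30, adjusted p = 0.000549). Eno2 made up 9.25% ± 2.14 of enolase in HSCs, from 3.75% to 11.9% in CLPs, and 0.656% ± 0.182 in GMPs. In the last it stood at 0.422 CPM per kb, near the receptor level.

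Pyruvate kinase of the Pkm gene makes pyruvate and ATP, and its 2 splice forms cannot be separated in gene counts. Pkm measured 391, 166, 222 and 317 CPM in HSCs, 167, 147, 92.0 and 182 CPM in CLPs and 641, 731, 662 and 589 CPM in GMPs. GMPs were above HSCs, with -1.26 (SE 0.25, adjusted p = 2.78e-05) for HSCs against GMPs, and HSCs were above CLPs by 0.90 (SE 0.25, adjusted p = 0.0037). Per kb of exon, the order of levels in HSCs began with Ldha (67.4 CPM per kb), Pkm (54.8), Gapdh (46.4) and Aldoa (42.1), that in CLPs with Gapdh (53.4), Ldha (38.6) and Pkm (29.4), and that in GMPs with Gapdh (154), Pkm (131), Gpi1 (121) and Ldha (113). Neighbours in these orders overlapped in their spread over the 4 libraries.

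Lactate dehydrogenase differed in isoform between HSCs and both progenitors. Ldha encodes the M subunit, which favours making lactate from pyruvate, and Ldhb encodes the H subunit, which favours the reverse. Ldhb measured 73.7, 35.2, 40.8 and 52.0 CPM in HSCs, 5.60, 6.52, 3.62 and 6.22 CPM in CLPs and 23.2, 20.9, 20.3 and 20.8 CPM in GMPs. The 3 cell types did not overlap. HSCs were above CLPs by 3.19 (SE 0.24, adjusted p = 5.29e-17) and above GMPs by 1.24 (SE 0.21, adjusted p = 2.06e-06), and CLPs were below GMPs (-1.95 (SE 0.23, adjusted p = 8.45e-10)). Ldha measured 300.2, 147, 194 and 251 CPM in HSCs, 144, 142, 70.05 and 155 CPM in CLPs and 392, 429, 361 and 318 CPM in GMPs, with GMPs highest. HSCs against GMPs differed by -0.75 (SE 0.24, adjusted p = 0.00898) and HSCs against CLPs by 0.80 (SE 0.24, adjusted p = 0.00765), so that the 2 subunits moved in opposite directions between HSCs and GMPs. Ldhb made up 34.1%, 33.6%, 30.7% and 30.4% of the family level in HSCs, 7.60%, 8.81%, 9.81% and 7.81% in CLPs and 11.1%, 9.34%, 10.6% and 12.1% in GMPs. HSCs differed from both progenitors at the smallest exact permutation p of 0.0286, and CLPs and GMPs overlapped (exact p = 0.0571). 

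The promoters of Ldha, Ldhb and Pgk1 are shown because Ldha and Pgk1 were highest in GMPs while Ldhb was highest in HSCs. Each is 300 bases from RefSeq (GRCm38.p6), 250 before and 50 after the annotated start, read 5′ to 3′ on the strand of the gene. Capitals mark the letters ACGTG on either strand, the core to which hypoxia-inducible factors are known to bind, including where they lie inside CACGTG, the E-box of MYC-type factors and others.
Ldha: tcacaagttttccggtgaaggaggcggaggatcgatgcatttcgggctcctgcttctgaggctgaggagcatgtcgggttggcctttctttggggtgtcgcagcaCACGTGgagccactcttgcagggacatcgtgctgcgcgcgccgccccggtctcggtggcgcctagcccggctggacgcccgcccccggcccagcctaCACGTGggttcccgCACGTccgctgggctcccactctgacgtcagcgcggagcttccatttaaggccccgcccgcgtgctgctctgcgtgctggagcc
Ldhb: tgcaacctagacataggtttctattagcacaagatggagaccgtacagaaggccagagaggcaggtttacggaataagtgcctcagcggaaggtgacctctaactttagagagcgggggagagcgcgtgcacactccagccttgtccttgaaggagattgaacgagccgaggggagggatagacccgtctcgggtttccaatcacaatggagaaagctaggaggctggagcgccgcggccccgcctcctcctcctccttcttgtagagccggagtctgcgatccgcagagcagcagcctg
Pgk1: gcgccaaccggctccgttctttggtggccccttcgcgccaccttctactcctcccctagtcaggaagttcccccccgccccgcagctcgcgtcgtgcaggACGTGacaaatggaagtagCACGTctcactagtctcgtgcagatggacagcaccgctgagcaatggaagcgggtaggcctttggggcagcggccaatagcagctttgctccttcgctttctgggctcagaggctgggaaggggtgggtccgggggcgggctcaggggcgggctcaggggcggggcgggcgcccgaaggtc
The letters occurred at 3 places in the Ldha promoter (chr7:46845554-46845853, plus strand), with first bases at -145, -48 and -34 from the start, at 2 places in that of Pgk1 (chrX:106186850-106187149, plus strand) and at none in that of Ldhb (chr6:142507908-142508207, minus strand). The start of Ldha in this table lies 4329 bases inside the span of the gene in Gencode. Of the 30 members with a promoter in the table (Slc2a3 has none), 14 held ACGTG, or 46.7%, beside 6447 of 32851 promoters in the whole table, or 19.6%. Among members higher in GMPs than in HSCs 7 of 16 held it (43.8%), and among those higher in HSCs 4 of 8 (50%). Matches are letters in a window and not sites of binding, and their absence from a window says nothing of the factor.

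**Figure D2:**
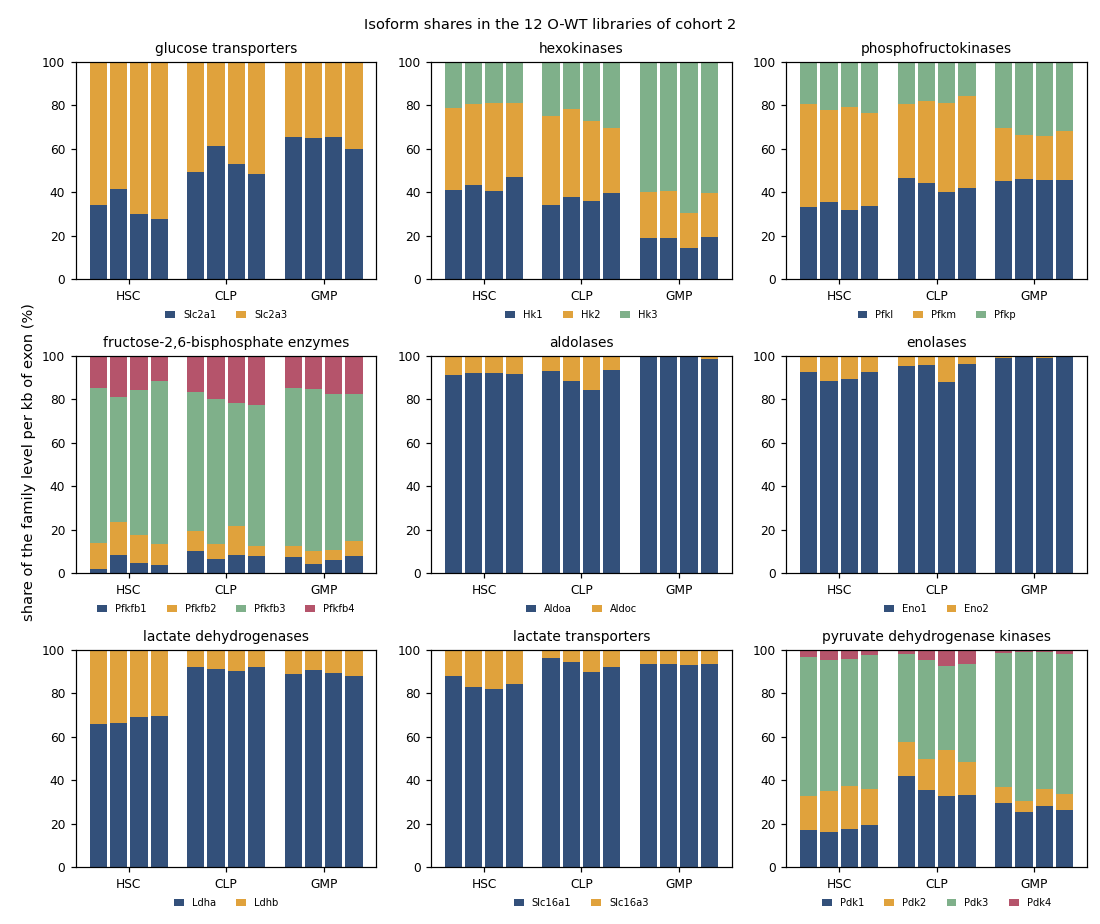
Isoform shares (percent of the summed CPM per kb of exon of a family) for the 9 families in the 12 O-WT libraries of cohort 2, each stacked bar 1 library. Ldhb takes 30.4% to 34.1% of lactate dehydrogenase in HSCs and at most 12.1% elsewhere, and Hk3 takes 59.5% to 69.8% of hexokinase in GMPs and at most 30.6% elsewhere.

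The lactate carrier Slc16a1 ran against most other members between HSCs and CLPs. Slc16a1 encodes MCT1, which moves lactate and pyruvate both ways, and Slc16a3 encodes MCT4, a low-affinity exporter of strongly glycolytic cells. Slc16a1 measured 26.1, 17.9, 22.6 and 28.5 CPM in HSCs, 51.4, 49.5, 30.0 and 50.9 CPM in CLPs and 129, 134, 111 and 102 CPM in GMPs. HSCs were below every progenitor library, with -0.94 (SE 0.21, adjusted p = 0.000294) against CLPs and -2.32 (SE 0.21, adjusted p = 7.76e-14) against GMPs, and it was the member called lower in HSCs than in CLPs. Slc16a3 measured 4.33, 4.36, 6.003 and 6.32 CPM in HSCs, 2.46, 3.60, 3.99 and 5.13 CPM in CLPs and 10.3, 10.9, 9.69 and 8.09 CPM in GMPs. GMPs were higher, at -0.89 (SE 0.28, adjusted p = 0.0075) for HSCs and -1.35 (SE 0.28, adjusted p = 0.00013) for CLPs against GMPs. At 0.987, 0.714 and 1.83 CPM per kb in HSCs, CLPs and GMPs it was close to the receptor level in the first 2. MCT1 RNA was 84.3% ± 2.57 of the carrier level in HSCs and 93.2% ± 2.63 in CLPs, against 93.6% ± 0.256 in GMPs, and HSCs did not overlap either progenitor (exact permutation p = 0.0286).

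The pyruvate dehydrogenase kinases, which phosphorylate pyruvate dehydrogenase in the mitochondrial matrix and so limit the making of acetyl-CoA, also changed in make-up. Pdk3 measured 81.3, 47.2, 45.9 and 61.3 CPM in HSCs, 27.3, 23.9, 16.7 and 31.4 CPM in CLPs and 56.8, 68.4, 53.2 and 51.3 CPM in GMPs. It was higher in HSCs than in CLPs, by 1.24 (SE 0.21, adjusted p = 2.74e-06), and did not pass the test between HSCs and GMPs (0.04 (SE 0.20, adjusted p = 0.893)). Pdk1, a target of hypoxia signalling, measured 65.2, 38.5, 42.3 and 58.2 CPM in HSCs, 85.3, 56.8, 43.2 and 70.3 CPM in CLPs and 82.4, 76.5, 72.2 and 63.9 CPM in GMPs, with overlapping groups and -0.53 (SE 0.20, adjusted p = 0.0346) for HSCs against GMPs. Pdk2 measured 24.8, 17.9, 19.0 and 21.1 CPM in HSCs, 12.8, 9.32, 11.2 and 13.03 CPM in CLPs and 8.37, 6.26, 7.96 and 6.92 CPM in GMPs. HSCs were above CLPs by 0.83 (SE 0.21, adjusted p = 0.00143) and above GMPs by 1.49 (SE 0.21, adjusted p = 4.45e-08). Pdk4, a kinase induced by fasting, measured 5.34, 4.70, 4.26 and 3.37 CPM in HSCs, 1.46, 3.26, 4.49 and 6.30 CPM in CLPs and 1.53, 1.32, 1.07 and 2.16 CPM in GMPs, with 1.54 (SE 0.39, adjusted p = 0.000963) for HSCs against GMPs, where it stood at 0.433 CPM per kb and near the receptor level. Of the summed kinase level, Pdk3 was 61.2% ± 2.27 in HSCs and 42.5% ± 3.35 in CLPs, against 64.6% ± 2.95 in GMPs. Pdk1 was 17.5% ± 1.25, 35.9% ± 4.24 and 27.4% ± 1.89, and all 3 pairs differed at the smallest exact p of 0.0286. Pdk2 fell from 17.8% in HSCs and 16.5% in CLPs to 6.79% in GMPs (exact p = 0.0286 for each of these against GMPs).

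Minpp1, a phosphatase of inositol polyphosphates that can also act on 2,3-bisphosphoglycerate, closed the group with 28.0, 16.1, 15.9 and 27.8 CPM in HSCs, 20.7, 15.6, 10.8 and 19.2 CPM in CLPs and 30.2, 35.6, 31.5 and 28.4 CPM in GMPs. GMPs were above CLPs (-0.92 (SE 0.21, adjusted p = 0.000427) for CLPs against GMPs) and HSCs (-0.52 (SE 0.21, adjusted p = 0.0433)).

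Over the 9 families, 35 of the 57 comparisons of a share between 2 O-WT cell types (19 shares, since 1 share of a pair of isoforms stands for both) reached the smallest exact p. They were 9 of 19 for HSCs against CLPs, 15 of 19 for HSCs against GMPs and 11 of 19 for CLPs against GMPs. In all this is 61.4%, where chance alone reaches that p at a rate of 0.0286. Shares within a family sum to the whole, so the comparisons are not independent. No such count was made over other gene families. The same comparisons in O-NR mice gave 38 of 57, and 31 comparisons reached the smallest exact p in both treatments with the same sign. For HSCs against CLPs, the shares of Hk1, Hk3, Pfkl and Pfkp reached it in O-WT and overlapped in O-NR.

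Most members called between cell types in O-WT were called again in O-NR. In O-NR, 20 members were called between HSCs and CLPs, 18 higher and 2 lower in HSCs, beside 30.2% of all genes (17.7% and 12.5%). Between HSCs and GMPs 20 were called, 9 higher and 11 lower in HSCs, beside 33.7% (18% and 15.7%). Between CLPs and GMPs 23 were called, 3 higher and 20 lower in CLPs, beside 37.1% (19.9% and 17.2%). With the same sign, 18, 20 and 22 members were called in both treatments. The share of all genes called in both treatments was not counted. Pfkfb3 was called between HSCs and CLPs in O-WT alone, and Minpp1 and Pfkfb1 in O-NR alone. Between HSCs and GMPs, Pdk1, Ldha, Pfkl, Pfkp and Minpp1 were called in O-WT and not in O-NR, at O-NR log2 fold changes of -0.41, -0.54, -0.32, -0.45 and -0.11. Between CLPs and GMPs this held for Pdk4 and Eno2, while Slc2a3 was called in O-NR, at 0.70 (SE 0.21, adjusted p = 0.00856). With upper quartile scaling the O-NR members split 18 to 6, 9 to 14 and 5 to 20.

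**Figure D3:**
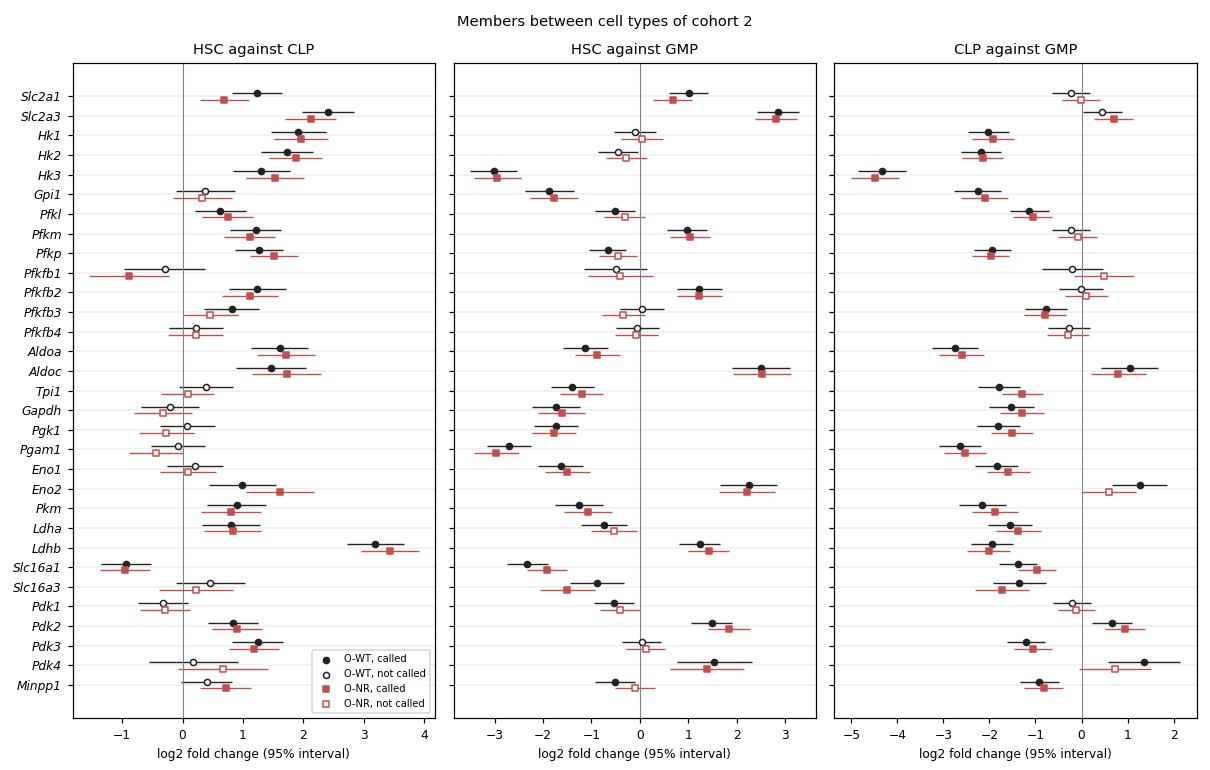
Log2 fold change of each member with its 95% interval in the 3 comparisons of cell types, for O-WT and O-NR libraries of cohort 2 (4 in each group). Hk3 reaches -4.33 and Pgam1 -2.63 for CLPs against GMPs in O-WT, Ldhb reaches 3.19 and Slc2a3 2.41 for HSCs against CLPs, and the O-WT and O-NR values lie close to each other for most genes.

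Dividing cells differed among the 3 gates as well. The 6 genes of cell division summed to 118.6 to 241.9 CPM in the O-WT HSC libraries, 1408 to 3001 in CLPs and 2617 to 3104 in GMPs. All 6 were called lower in HSCs than in each progenitor, beside 9.38% of all genes against CLPs and 18.6% against GMPs. Between CLPs and GMPs 1 of 6 was called, beside 56.2% of all genes. The part of cell division in the differences of the members was not tested.

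The other genes of the pathway placed the members in context. Of 16 tested isoforms outside the members (18 listed), 1 was higher and 3 lower in HSCs than in CLPs, 2 higher and 4 lower in HSCs than in GMPs, and 8 higher and 2 lower in CLPs than in GMPs. These counts, like those of the lists that follow, stand beside 26.0%, 38.5% and 56.2% of all genes called in the 3 comparisons, and for these isoforms they are close to those shares. Those higher in CLPs than in GMPs included Slc2a2, the GLUT2 carrier of liver, at 7.40 against 2.72 CPM (log2 fold change 1.44, SE 0.34, adjusted p = 0.000609), and Pklr, the pyruvate kinase of liver and red cells, at 7.29 against 3.45 CPM (1.08, SE 0.32, adjusted p = 0.00504). Both levels are low, and the part of the background in them was not tested. All 8 genes of the pentose phosphate pathway, which branches off at glucose-6-phosphate and yields NADPH and ribose, were lower in HSCs than in GMPs, and 7 of 8 were lower in CLPs. Pgd, its second dehydrogenase, measured 37.7 CPM in HSCs and 39.6 in CLPs, against 188.5 in GMPs, with a log2 fold change of -2.32 (SE 0.21, adjusted p = 4.25e-14) for HSCs and -2.25 (SE 0.21, adjusted p = 3.71e-13) for CLPs against GMPs. G6pdx, its first enzyme, was at 21.4 CPM in CLPs and 109.0 in GMPs (-2.34, SE 0.23, adjusted p = 4.15e-12). Between HSCs and CLPs, 1 gene of this list was higher and 1 lower, the latter being Pgls at 24.3 against 65.5 CPM (-1.43, SE 0.22, adjusted p = 2.59e-07).

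Genes of pyruvate entry into mitochondria, gluconeogenesis and regulation were counted in the same way. Of 10 genes for the pyruvate carrier and the pyruvate dehydrogenase complex, 6 were lower and 1 higher in HSCs than in GMPs, 9 were lower in CLPs than in GMPs, and 1 was higher in HSCs than in CLPs. Of 11 tested genes of gluconeogenesis and side branches (12 listed), 5 were lower in HSCs and 6 in CLPs than in GMPs, with 1 higher in CLPs, and 1 was higher and 1 lower in HSCs than in CLPs. Emb, a partner that carries MCTs to the membrane, had 37.6 CPM in HSCs and 133.4 in CLPs, against 343.1 in GMPs, with log2 fold changes of -1.83 (SE 0.25, adjusted p = 1.67e-08) and -3.19 (SE 0.26, adjusted p = 1.03e-15) for HSCs against CLPs and GMPs, so that it followed the order of Slc16a1. Among 7 regulators, 2 were higher in HSCs than in both progenitors. Txnip, which removes glucose carriers from the membrane and responds to glucose through MondoA, measured 875.7 ± 388.3 CPM in HSCs and 91.8 in CLPs, against 63.0 in GMPs, with log2 fold changes of 3.25 (SE 0.29, adjusted p = 4.79e-14) and 3.80 (SE 0.30, adjusted p = 2.60e-16). Arrdc4, its relative, measured 84.1, 14.9 and 15.9 CPM, with 2.498 (SE 0.24, adjusted p = 3.84e-13) and 2.40 (SE 0.23, adjusted p = 6.26e-13). HSCs were thus highest both for the 2 glucose carriers and for these 2 arrestins.

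With NR, 3 members rose in HSCs of cohort 2 at an unadjusted p below 0.01, where 0.777% of 17364 genes were called (0.490% higher), and the adjusted p of each was above 0.05. Pdk1 measured 65.2, 38.5, 42.3 and 58.2 CPM in O-WT and 70.6, 57.7, 85.0 and 66.6 in O-NR. The groups overlapped, and the log2 fold change was 0.39 (SE 0.10, 95% interval 0.17 to 0.60, adjusted p = 0.903). Slc16a1 measured 26.1, 17.9, 22.6 and 28.5 CPM in O-WT and 33.9, 23.8, 44.0 and 35.1 in O-NR. It rose by 0.43 (SE 0.13, 95% interval 0.17 to 0.70, adjusted p = 0.995), with the lowest O-NR library below 2 of the O-WT libraries. Minpp1 measured 28.0, 16.1, 15.9 and 27.8 CPM in O-WT and 30.0, 24.2, 40.0 and 28.0 in O-NR, with overlap, and rose by 0.41 (SE 0.14, 95% interval 0.12 to 0.70, adjusted p = 0.995). The call of Minpp1 was kept in 6 of 16 alternative fits, that of Pdk1 in 11 and that of Slc16a1 in 12. Without O-NR replicate 3, the library with the highest value of all 3 genes, 0 members were called. Without O-WT replicate 3 or O-NR replicate 4, 1 was called.

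A further 3 members had a p between 0.01 and 0.05 in HSCs and did not pass the threshold. Slc16a3 measured 4.33, 4.36, 6.003 and 6.32 CPM in O-WT and 3.73, 2.01, 3.72 and 3.36 in O-NR. These did not overlap, at a log2 fold change of -0.83 (SE 0.34, 95% interval -1.54 to -0.12), but their mean levels of 0.987 CPM per kb in O-WT and 0.603 in O-NR lie near the receptor levels of 0.297 to 0.560 in these libraries. Pfkfb3 measured 140.3, 61.1, 90.1 and 152 CPM in O-WT and 107, 54.9, 96.0 and 81.2 in O-NR and had a log2 fold change of -0.45 (SE 0.17, 95% interval -0.81 to -0.089). Slc2a1 measured 47.9, 30.4, 26.0 and 28.7 CPM in O-WT and 28.2, 20.8, 36.3 and 27.7 in O-NR and had -0.31 (SE 0.14, 95% interval -0.60 to -0.023). In all, 6 of the 31 members had a p below 0.05, beside 4.06% of all genes. The other members stayed above it, among them Ldha with 0.23 (95% interval -0.048 to 0.50) and Ldhb with 0.088 (-0.19 to 0.36).

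In CLPs no member was called by edgeR at p below 0.01, where 0.412% of 19909 genes were, or by DESeq2, and 2 had an edgeR p below 0.05, beside 3.21% of all genes. They were Slc16a1, with 51.4, 49.5, 30.0 and 50.9 CPM in O-WT and 55.0, 73.3, 68.9 and 68.4 in O-NR and a log2 fold change of 0.47 (SE 0.18, 95% interval 0.10 to 0.85), and Tpi1, with 36.9, 38.9, 21.9 and 45.2 CPM in O-WT and 48.2, 64.7, 43.1 and 48.7 in O-NR and 0.44 (SE 0.19, 95% interval 0.060 to 0.82). For Slc16a1 all O-NR libraries lay above all O-WT libraries, and for Tpi1 1 O-NR library lay below 1 O-WT library. CLP O-WT replicate 3, the library with the most background, was the lowest for both.

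In GMPs, 1 of the 28 members tested rose at p below 0.01, beside 0.986% of 13486 genes (0.237% higher). Pdk1 measured 82.4, 76.5, 72.2 and 63.9 CPM in O-WT and 99.3, 92.4, 88.9 and 90.6 in O-NR. Every O-NR library was above every O-WT library, and the log2 fold change was 0.33 (SE 0.076, 95% interval 0.17 to 0.49, adjusted p = 0.674). It was also the 1 member with a p below 0.05, beside 4.83% of genes. Next was its relative Pdk3, with 56.8, 68.4, 53.2 and 51.3 CPM in O-WT and 68.0, 61.9, 60.9 and 62.9 in O-NR and 0.14 (SE 0.083, 95% interval -0.039 to 0.32). Aldoc, Eno2 and Pdk4 were too low in GMPs to be tested. In CLPs the log2 fold change of Pdk1 was 0.35 (95% interval -0.039 to 0.74), with 85.3, 56.8, 43.2 and 70.3 CPM in O-WT and 85.7, 106, 79.3 and 71.7 in O-NR.

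**Figure D4:**
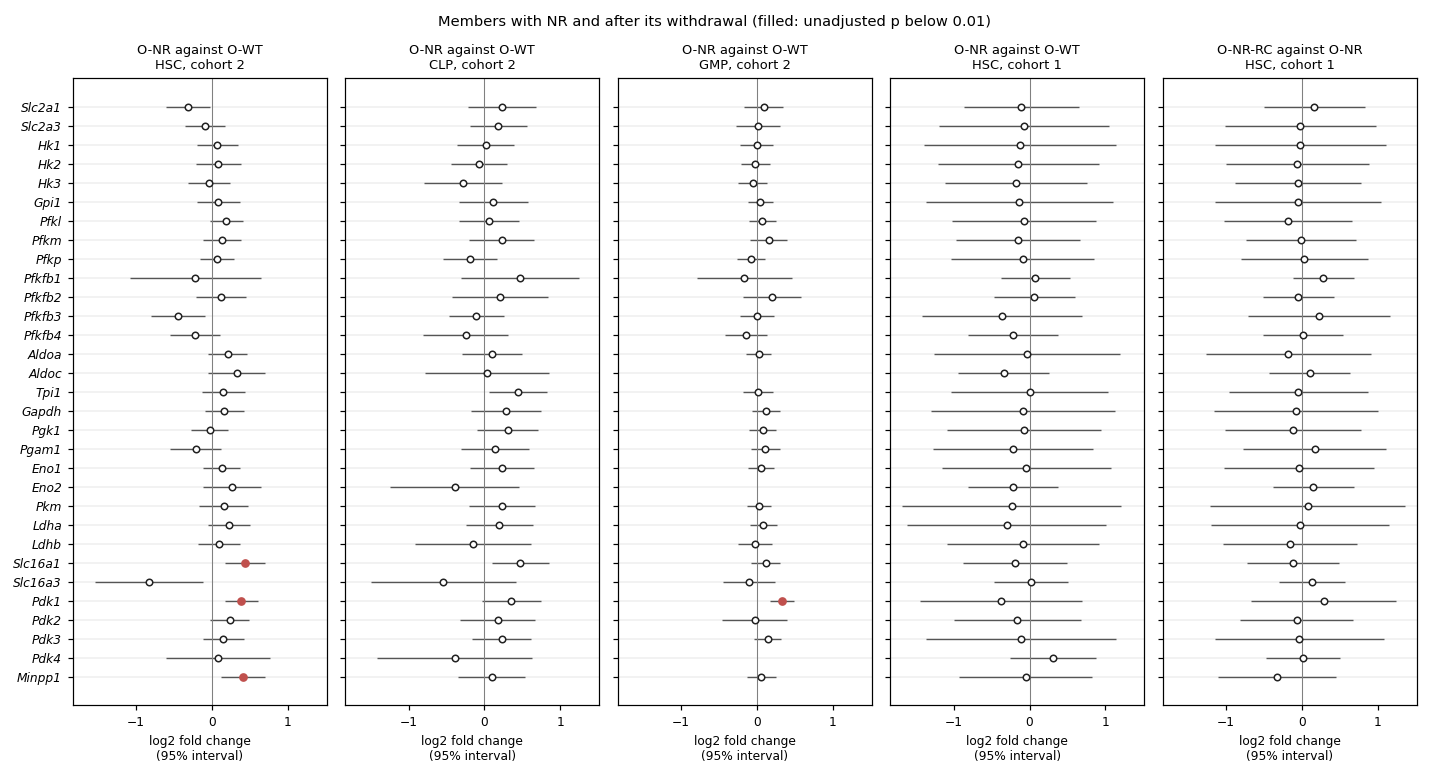
Log2 fold change of each member with its 95% interval for O-NR against O-WT in HSCs, CLPs and GMPs of cohort 2. HSCs of cohort 1 are shown for O-NR against O-WT and for O-NR-RC against O-NR. Pdk1 stands at 0.39, 0.35 and 0.33 in the 3 cell types of cohort 2, and the intervals of cohort 1 are wider, from -1.45 to 0.70 for Pdk1 in O-NR against O-WT.

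No member passed the test for an NR effect that differed between cell types. In the interaction tests over the 24 libraries, 0 of 31 members had an edgeR p below 0.01 or below 0.05 for HSCs minus CLPs, HSCs minus GMPs or CLPs minus GMPs, and DESeq2 called 0, beside 0.403%, 0.146% and 0.403% of genes at 0.01 and 2.30%, 1.41% and 2.90% at 0.05. The smallest p-values were those of Slc2a1 (-0.54, SE 0.29, 95% interval -1.11 to 0.030) and Eno2 (0.62, SE 0.39, 95% interval -0.17 to 1.41) for HSCs minus CLPs. For HSCs minus GMPs they were those of Slc16a3 (-0.61, SE 0.39, 95% interval -1.40 to 0.18) and Minpp1 (0.41, SE 0.29, 95% interval -0.18 to 1.00), and for CLPs minus GMPs those of Tpi1 (0.50, SE 0.31, 95% interval -0.12 to 1.1203) and Eno2 (-0.67, SE 0.42, 95% interval -1.51 to 0.18). For Eno2 the O-NR libraries had 12.96, 11.2, 12.7 and 11.6 CPM in HSCs, 3.91, 5.09, 2.98 and 3.77 CPM in CLPs and 2.21, 2.95, 3.29 and 1.97 CPM in GMPs. The difference of the Pdk1 effect was 0.030 for HSCs minus CLPs (95% interval -0.55 to 0.61) and 0.12 for HSCs minus GMPs (-0.46 to 0.70).

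Isoform shares were compared with NR in the same way. Of 57 comparisons in cohort 2, 3 (5.26%) reached the smallest exact permutation p of 0.0286, which is also the rate at which chance alone reaches it. The Slc16a1 share in HSCs was 87.9%, 83.2%, 81.9% and 84.4% in O-WT and 91.6%, 93.5%, 93.4% and 92.6% in O-NR, or 84.3% ± 2.57 against 92.8% ± 0.861. The rest of this family is Slc16a3, which averaged 0.987 CPM per kb in O-WT and 0.603 in O-NR. Both are near the receptor levels of these libraries (0.297 to 0.560), which limits this share. In GMPs it was 93.6% ± 0.256 in O-WT and 94.5% ± 0.561 in O-NR. The Pdk1 share in GMPs was 29.6%, 25.3%, 28.2% and 26.5% in O-WT and 30.3%, 30.8%, 29.7% and 29.9% in O-NR. The Pdk1 share in HSCs overlapped, at 17.5% ± 1.25 and 19.99% ± 1.91 (exact p = 0.0857). The Ldhb share in HSCs was 29.4%, 32.3%, 31.9% and 27.0% in O-NR, which overlaps the O-WT range.

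Plasma and B cell transcripts varied widely among the HSC libraries. In cohort 2 the 4 markers summed to 43.4 to 731.8 CPM in O-WT and 9.87 to 120.1 CPM in O-NR, which overlap. Of the 4, 1 was lower in O-NR at an unadjusted p below 0.01, beside 0.777% of all genes called. In cohort 1 they summed to 23.5 and 28.7 CPM in O-WT, 18.7 to 44.7 in O-NR and 49.5 to 272.6 in O-NR-RC. There 0 of 4 were called for O-NR against O-WT, beside 0.0480% of all genes. In O-NR-RC 2 were higher than in either, beside 0.0360% of all genes called against O-NR and 0.0780% against O-WT. The receptor level in HSCs of cohort 2 was 0.297 to 0.560 CPM per kb in O-WT and 0.314 to 0.502 in O-NR. Their part in the effects on the members was not tested.

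Cohort 1 addressed whether an NR effect lasts after withdrawal, and its libraries differed among themselves by more than the groups did. The 31 genes summed to 653.4 and 556.3 CPM per kb in O-WT, to 369.3, 372.1, 665.6 and 779.7 in O-NR and to 916.8, 333.7 and 355.3 in O-NR-RC. The receptor level was 1.22 and 1.56 CPM per kb in O-WT, 1.95, 1.93, 1.25 and 1.20 in O-NR and 1.10, 1.92 and 1.85 in O-NR-RC. The 4 libraries with the lowest glycolytic sums were those with the highest receptor levels, and they are O-NR replicates 1 and 2 and O-NR-RC replicates 2 and 3. O-NR-RC replicate 1 had the highest sum. The 7 HSC markers varied in the same libraries, from 676.3 to 1777 CPM in O-NR and from 609.3 to 1547 in O-NR-RC.

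By edgeR, 0 members were called in cohort 1 for O-NR against O-WT, O-NR-RC against O-NR or O-NR-RC against O-WT, and 0 had an unadjusted p below 0.05. Of all 33350 genes, 0.0480%, 0.0360% and 0.0780% were called at 0.01 and 0.546%, 0.291% and 0.795% had a p below 0.05. Pdk1 measured 106 and 69.2 CPM in O-WT, 52.1, 48.0, 78.3 and 91.2 in O-NR and 147, 47.1 and 52.3 in O-NR-RC, with a log2 fold change of -0.38 (SE 0.50, 95% interval -1.45 to 0.70) for O-NR against O-WT and 0.29 (SE 0.44, 95% interval -0.67 to 1.24) for O-NR-RC against O-NR. Slc16a1 measured 36.7 and 32.7, then 23.5, 27.4, 32.2 and 38.6, and then 39.1, 22.8 and 21.9 CPM in the same order. Minpp1 measured 27.6 and 24.2, then 16.8, 18.2, 31.3 and 33.6, and then 33.0, 13.1 and 13.4 CPM, and had a log2 fold change of -0.33 (SE 0.36, 95% interval -1.11 to 0.45) for O-NR-RC against O-NR. In all 3 genes the groups overlapped. Without O-NR-RC replicate 1, Minpp1 was called in that comparison, at -0.92.

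The members with the smallest p in cohort 1 were Pfkfb1, Aldoc, Pdk4 and Minpp1, the last given above. Pfkfb1, at 1.80 to 2.30 CPM per kb on average, was close to the receptor level, and Aldoc (4.86 to 6.16) and Pdk4 (3.56 to 4.46) were above it. Pfkfb1 measured 7.17 and 7.29 CPM in O-WT, 8.24, 8.37, 7.07 and 6.87 in O-NR and 10.2, 9.36 and 8.195 in O-NR-RC, with 0.28 (SE 0.19, 95% interval -0.12 to 0.68) for O-NR-RC against O-NR and 0.36 (SE 0.23, 95% interval -0.13 to 0.84) against O-WT. Aldoc measured 21.4 and 18.8, then 13.2, 14.2, 16.7 and 19.2, and then 23.6, 14.2 and 13.1 CPM, and had -0.34 (SE 0.28, 95% interval -0.94 to 0.25) for O-NR against O-WT. Pdk4 measured 13.03 and 11.9, then 19.3, 18.2, 13.6 and 10.9, and then 13.8, 17.2 and 15.96 CPM, with 0.31 (SE 0.26, 95% interval -0.25 to 0.87) for O-NR and 0.32 (SE 0.27, 95% interval -0.27 to 0.92) for O-NR-RC against O-WT. Pfkfb1 and Pdk4 were highest in libraries with high receptor levels in O-NR. Ldha shows the reverse and the size of the spread, at 269.9 and 206 CPM in O-WT, 118, 124, 253 and 277 in O-NR and 350.5, 99.0 and 117 in O-NR-RC.

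**Figure D5:**
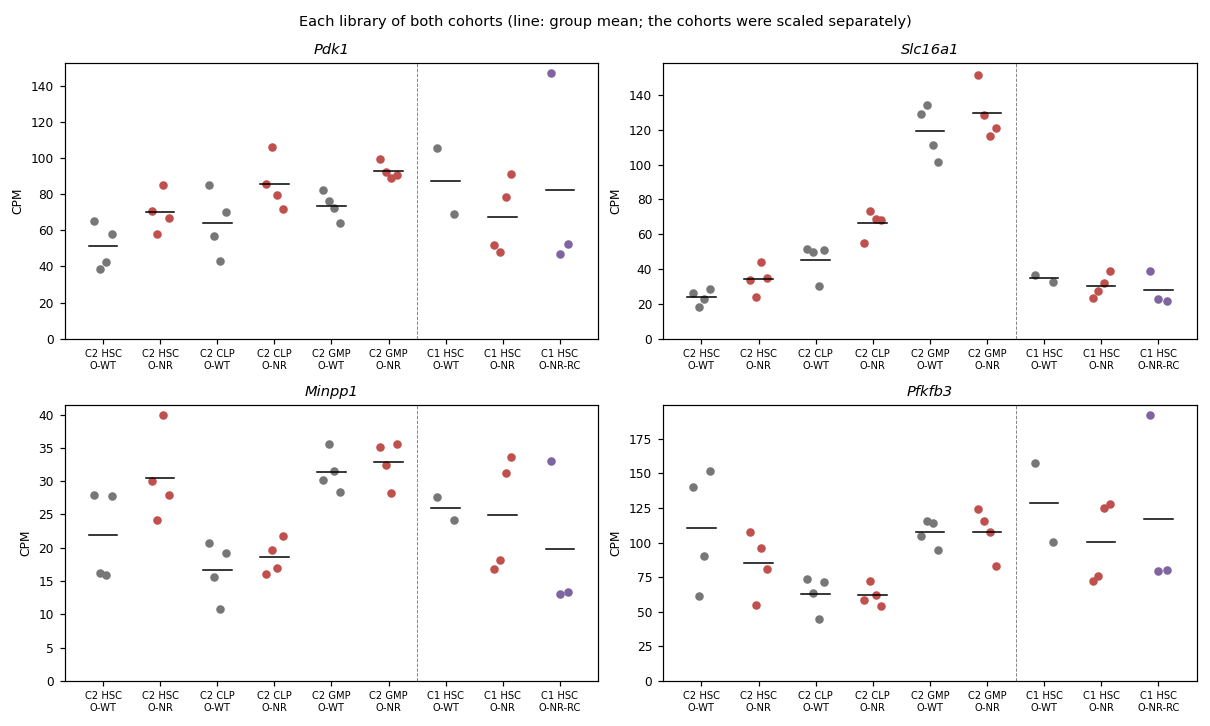
CPM of Pdk1, Slc16a1, Minpp1 and Pfkfb3 in each HSC, CLP and GMP library of cohort 2 and each HSC library of cohort 1, with a bar at each group mean. The cohorts were scaled separately. Pdk1 in GMPs runs from 63.9 to 82.4 CPM in O-WT and from 88.9 to 99.3 in O-NR, and in cohort 1 O-NR-RC replicate 1 stands apart at 147 CPM.

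For the isoform shares of cohort 1, of 57 comparisons, 0 reached the smallest exact p the design allows, which is 0.0667 for 2 against 4 libraries, 0.0286 for 3 against 4 and 0.1 for 2 against 3. The Pdk1 share was 23.4% and 21.8% in O-WT, 21.4%, 20.1%, 18.5% and 18.7% in O-NR and 23.8%, 21.6% and 22.4% in O-NR-RC. O-NR did not overlap O-WT (exact p = 0.133) or O-NR-RC (exact p = 0.0571), and these were the only 2 comparisons of the 57 in which the groups did not overlap. In cohort 2 the Pdk1 share of HSCs was higher, and not lower, in O-NR on average. The Slc16a1 share averaged 77.3% in O-WT, 74.0% in O-NR and 69.9% in O-NR-RC, all below the 84.3% and 92.8% of cohort 2. The background was lower in cohort 2, and its part in this difference was not tested. The Ldhb share was 28.7% and 31.5% in O-WT, 30.9% to 35.4% in O-NR and 28.6% to 36.6% in O-NR-RC, close to that of HSCs in cohort 2.

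Over the HSC libraries of both cohorts, 6 O-WT and 8 O-NR with the cohort as a term, 0 members were called at p below 0.01 by edgeR, beside 0.103% of 23413 genes, and 1 had a p below 0.05, beside 0.923%. That was Pfkfb3, with a log2 fold change of -0.39 (SE 0.17, 95% interval -0.75 to -0.024). It measured 157 and 101 CPM in O-WT and 72.2, 75.7, 125 and 128 in O-NR of cohort 1. Slc16a3 followed, with -0.42 (SE 0.21, 95% interval -0.86 to 0.017). The difference of the NR effect between the cohorts was tested as an interaction, and 0 members were called (0.137% of genes), while 4 had a p below 0.05 (1.86% of genes). For Pdk1 the difference of cohort 2 minus cohort 1 was 0.74 (SE 0.28, 95% interval 0.14 to 1.33) and for Slc16a1 0.60 (SE 0.24, 95% interval 0.091 to 1.10), where both rose in cohort 2 and had -0.38 and -0.19 in cohort 1. Among the pathway lists, the genes called for NR at p below 0.01 were 1 of 7 regulators in CLPs, beside 0.412% of all genes, and 1 of 7 in GMPs, beside 0.986%. Arrdc4 fell by 0.73 in CLPs (SE 0.26, 95% interval -1.26 to -0.19) and Myc fell by 0.26 in GMPs (SE 0.082, 95% interval -0.43 to -0.081), and each of these calls was kept in 6 of 16 alternative fits. No gene of these lists was called in either HSC cohort.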

How the data were processed

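RNA-seq of HSCs, CLPs and GMPs gave 33 libraries. Reads were trimmed with cutadapt (through trim galore), aligned with STAR to mm10 and counted with featureCounts on Gencode M22, and the authors deposited raw counts per gene symbol, with no normalization. The versions of STAR and featureCounts and the strand and multimapping settings are not given in the sources used here. The labels and the study's methods name the SMARTer total RNA kit differently.

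From these counts, edgeR 4.0.16 (R 4.3.3) quasi-likelihood fits with TMM scaling were computed over all genes with CPM above 3 in at least 4 libraries (2 in cohort 1, 6 across both cohorts). Cell types were compared in 1 fit of 24 libraries at a Benjamini-Hochberg adjusted p of 0.05, and treatments at an unadjusted p of 0.01. Shares were compared with two-sided exact permutation tests over libraries, and given as counts at the smallest possible p, without the planned adjustment over shares. Gene lengths and positions are from Gencode M21, which holds 54510 of the 55376 symbols. Fits were tested on simulated counts drawn independently for each library. These held neither the differences in background nor the close libraries of cohort 1. Intervals on fold changes come from the spread between libraries, and depth limits the genes near the background level.

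The members and lists were chosen with earlier results of these data known. Library values are printed for members called in an O-WT comparison with a log2 fold change of at least 1 in size, called for a treatment, or among the 2 smallest p-values of a treatment comparison. Other members are given by range, and list genes by up to 2 in each direction. Members named in context (Ldha in cohort 1, for example) or at p below 0.05 were chosen after their values were seen. Alternatives were DESeq2 1.42.0, upper quartile scaling, other filters and fits, a replicate block and each library left out. The receptor level as a term, and shares less that level, were chosen after seeing the data. The number blocked is that of the titles, and each matches 1 number in the file names across cell types. Same-numbered HSC and CLP libraries of O-WT deviated together (mean correlation 0.27, lowest 0.12), while in O-NR they did not (mean -0.10, lowest -0.37), nor did those of HSCs and GMPs in O-WT (mean -0.19). The counts of members called were the same with the block as without it in each of the 6 comparisons of cell types. No 2 libraries of a group agreed within sampling noise, but some of cohort 1 were much closer than others. Their chi-square per degree of freedom was 1.91 for O-NR replicates 1 and 2 and 3.65 for replicates 3 and 4. Between these pairs it was 48.6 to 66.8. O-NR-RC replicates 2 and 3 gave 3.76, against 92.7 and 66.8 with replicate 1. Tests in cohort 1 took each library as a separate replicate, and whether close libraries share a source was not tested. Copies of the member genes held at most 2.8% of a member's reads each.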

Additional observations from a re-analysis of the deposited data

Results flagged for a closer look

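In groups of 4 libraries, a library was looked at again when its gap to the nearest other, divided by the range of the group, passed Dixon's 95% critical value. This was done for 343 groups, and chance gives about 1 in 20 of them. In all, 15 passed. No explanation was tested.

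Among CPM, CLP O-WT replicate 3 stood low for Ldha, at 70.05 against 142.1 to 154.8, and for Slc16a1, at 30.04 against 49.54 to 51.44. It is the library with the highest receptor level of cohort 2. CLP O-WT replicate 4 stood high for Pfkm, at 24.97 against 16.33 to 16.96. HSC O-NR replicate 2 stood low for Slc16a3, at 2.008 against 3.359 to 3.728.

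Among isoform shares, CLP O-WT replicate 3 was low for Eno1, at 88.13% against 95.56% to 96.25%, and high for Pdk2, at 20.98% against 14.36% to 15.48%. GMP O-WT replicate 3 was low for Hk1, at 14.37% against 18.94% to 19.2%, and high for Hk3, at 69.75% against 59.49% to 60.24%, which are shares of 1 family. GMP O-WT replicate 4 was low for Slc2a1, at 60.11% against 64.81% to 65.5%. In CLP O-NR, replicate 2 was high for Aldoa, at 95.99% against 88.05% to 89.35%, and for Pfkfb2, at 10.93% against 9.441% to 9.558%, and replicate 4 was high for Pfkp, at 18.41% against 13.44% to 13.82%. In GMP O-NR, replicate 3 was high for Pdk2, at 7.196% against 5.2% to 5.409%, and replicate 4 for Pdk4, at 1.73% against 1.22% to 1.261%. In cohort 1, O-NR replicate 3 was low for Hk3, at 17.83% against 22.34% to 23.16%.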

How the results depend on the processing

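Counts of members called between cell types stayed within 1.5 times the reported count under all alternatives, and with 1 library left out they were 17 to 20, 22 to 26 and 24 to 25 in O-WT and 18 to 21, 20 to 24 and 22 to 24 in O-NR. Shares at the smallest exact p were 31 to 36 in O-WT and 30 to 40 in O-NR with 1 library left out. In O-NR, the Slc16a1 share of HSCs less that of GMPs went from -1.71 to 1.69 percentage points (exact p = 0.114) once the receptor level was subtracted. Treatment counts moved more. For NR in HSCs of cohort 2, 3 members became 0 with a fold above 1.5, no filter or the 24-library fit, 1 with filterByExpr, 5 with the receptor level as a term, and 0 to 3 with 1 library left out. In CLPs, 0 became 1 with upper quartile scaling, 2 with the receptor term and 2 with the replicate block (Slc16a1 and Tpi1), and remained 0 to 0 with 1 library left out. In GMPs, 1 became 0 with a fold above 1.5, filterByExpr, no filter or the 24-library fit, and was 1 to 1 with 1 library left out. In cohort 1, O-NR-RC against O-NR went from 0 to 1 with the receptor term and ranged from 0 to 1 (1 without O-NR-RC replicate 1). Over both cohorts, 0 became 1 with upper quartile scaling, the replicate block or the receptor term, and the cohort difference went from 0 to 1 with upper quartile scaling or the receptor term and to 15 with the block. Of the NR shares in cohort 2, 3 became 5 from counts without length, 10 with the replicate block (smallest p 0.125) and 2 to 4 with 1 library left out. Those of cohort 1 went from 0 to 1 from counts without length or less the receptor level, to 17 with the block (smallest p 0.25) and to 0 to 12 with 1 library left out (12 without O-NR-RC replicate 1). With the replicate block, the counts between cell types stayed at 19, 25 and 24 in O-WT and 20, 20 and 23 in O-NR. Between treatments the libraries share only a number, and same-numbered ones did not all deviate together. Where leaving out a library left 1 in a group, its spread was taken from the other groups. The cause of these changes was not tested. Depth and background limit Slc16a3, Eno2, Pdk4, Aldoc and Pfkfb1.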
